A study of Oncorhynchus mykiss with 6 samples.

Results

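The enzymes that build pteridines, a class of yellow to orange pigments and enzyme cofactors, were examined in back (dorsal) skin taken from rainbow trout (Oncorhynchus mykiss) of 2 phenotypes, wild-type and yellow mutant. A locus was included when its gene symbol was gch1, gch2, gchfr, pts, spr, qdpr, pcbd1, xdh or aox5, or when its product name gave the corresponding enzyme. This rule found 16 of the 41818 loci in the deposited table. Of these, 12 matched by both symbol and product name, 1 by symbol only and 3 by product name only, and 0 loci matched the symbols gch2 and aox5 themselves. The 16 loci fell into 8 products: 4 loci of GTP cyclohydrolase 1, 2 of its feedback regulator, 1 of 6-pyruvoyl tetrahydropterin synthase, 1 of sepiapterin reductase, 2 of carbinolamine dehydratase, 3 of dihydropteridine reductase, 1 of xanthine dehydrogenase and 2 of aldehyde oxidase. The symbols do not separate the cyclohydrolase copies, since all 4 carry Gch1 or gch1, so loci are named with their identifiers. The RefSeq gene table names the 2 aldehyde oxidase loci, AOX1 in the deposited table, aox5 (ncbi_110495922) and aox6 (ncbi_110527537).

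Messenger RNA was sequenced in 6 libraries, 3 per phenotype, all from dorsal skin at an age of 45 days. The genetic lesion of the yellow mutant is not in the labels, and neither is whether replicates were different fish, so the spread behind each p-value is that between libraries and may be technical. Total counts ranged from 15059101 to 19031878 per library. Levels are counts relative to the library total after scaling with TMM factors (CPM), given as mean ± SD over the 3 libraries of a phenotype. A log2 change is the log2 of the yellow mutant level divided by the wild-type level, given with its standard error (SE) from edgeR's quasi-likelihood test across 30691 tested loci, with Benjamini-Hochberg adjusted p-values and a threshold of 0.05. In bulk skin, fewer cells of a type and less RNA per cell cannot be told apart.

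Pteridine synthesis starts from GTP. GTP cyclohydrolase opens the ring of GTP, 6-pyruvoyl tetrahydropterin synthase and sepiapterin reductase then finish tetrahydrobiopterin (BH4), and carbinolamine dehydratase and dihydropteridine reductase recycle BH4 after use. BH4 is the cofactor of the aromatic amino acid hydroxylases and of nitric oxide synthases, and side branches of the same route give the coloured pteridines of xanthophores, the yellow pigment cells of fish. Xanthine dehydrogenase and aldehyde oxidases are molybdenum enzymes that can oxidise pterins, and xanthine dehydrogenase also makes urate in purine breakdown.

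Skin of the yellow mutant held more RNA of the leading GTP cyclohydrolase locus (Gch1, ncbi_110502330, 2.30-fold) and of a dihydropteridine reductase locus (Qdpr, ncbi_110505140, 1.77-fold) than wild-type skin, and less RNA of an aldehyde oxidase locus (AOX1, RefSeq name aox5, ncbi_110495922, 2.49-fold lower). The 2 loci of the cyclohydrolase feedback regulator and the sepiapterin reductase locus did not pass the test. Of the 16 loci, 15 were abundant enough to be tested, and 6 of these were higher, 1 was lower and 8 did not pass. Among all tested loci, 21.7% were higher and 23.1% lower. The median log2 change of the tested enzyme loci was 0.33, against -0.0029 over all tested loci. At 6 of the tested enzyme loci every yellow mutant library stood above every wild-type library, and at 1 below, while 26.8% and 27.6% of all tested loci were separated in those directions. When libraries were scaled by their totals only, the median of all loci moved to 0.196, the share of higher loci among all calls moved from 48.5% to 70.4%, and 9 enzyme loci were higher and 1 lower. The directions and calls below are relative to the TMM scaling.

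**Figure D1:**
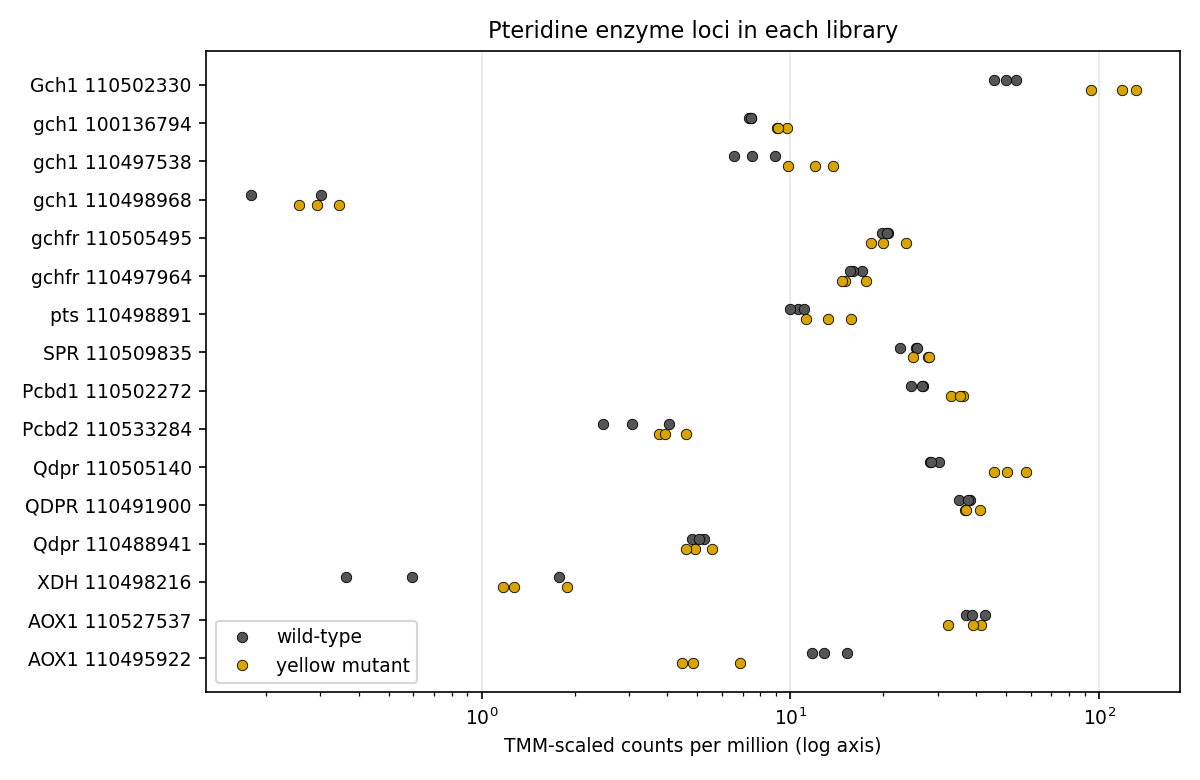
TMM-scaled CPM (log axis) of the 16 loci in each of the 3 wild-type and 3 yellow mutant libraries, ordered by step of the pathway. The points of Gch1 ncbi_110502330, Qdpr ncbi_110505140 and AOX1 ncbi_110495922 are widely separated between phenotypes, whereas those of both gchfr loci overlap; the wild-type replicate with no count at gch1 ncbi_110498968 is not drawn.

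GTP cyclohydrolase 1 catalyses the entry step, and its most abundant locus showed the largest increase among the tested enzyme loci. Gch1 (ncbi_110502330) stood at 53.8, 45.8 and 49.8 CPM in the wild-type libraries (replicates 1 to 3, the order used throughout) and reached 131, 93.9 and 119 CPM in those of the yellow mutant. The lowest yellow mutant library was therefore well above the highest wild-type library. The means were 49.8 ± 4.03 and 115 ± 19.0 CPM, and the log2 change was 1.20 (SE 0.11, adjusted p = 2.28e-06). Of all tested loci, 980 had a log2 change at least as high.

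The other cyclohydrolase copies were much less abundant. The copy gch1 (ncbi_110497538) had 126, 92 and 147 counts in wild-type skin and 170, 246 and 269 in the yellow mutant. Its mean level was 7.65 ± 1.17 and 11.9 ± 1.97 CPM, without overlap (log2 change 0.63, SE 0.15, adjusted p = 0.00364). The copy gch1 (ncbi_100136794) had 7.44, 7.36 and 7.44 CPM in wild-type skin and 9.06, 9.77 and 9.15 CPM in the yellow mutant. Its levels did not overlap either, but the step was small (log2 change 0.33, SE 0.11, adjusted p = 0.0305), and the call was lost without any of the 3 wild-type libraries, without yellow mutant replicate 2 or 3 and in DESeq2 (adjusted p = 0.0525 to 0.108 in those settings). The copy gch1 (ncbi_110498968) was too sparse to test, with 3, 0 and 5 counts in wild-type skin and 6, 6 and 5 in the yellow mutant. The sources used here do not say how reads shared between copies were counted, so the split between copies is uncertain.

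GCHFR binds GTP cyclohydrolase 1 and mediates its inhibition by BH4 in mammals. Its locus gchfr (ncbi_110505495) stood at 19.8, 20.7 and 20.6 CPM in wild-type skin and 19.9, 18.2 and 23.6 CPM in the yellow mutant. The groups overlapped, and the log2 change was 0.014 with a 95% interval from -0.20 to 0.23 (adjusted p = 0.922). The other locus, gchfr (ncbi_110497964), stood at 17.0, 15.9 and 15.6 CPM against 15.1, 14.7 and 17.5 CPM, also overlapping, with a log2 change of -0.039 and an interval from -0.25 to 0.18 (adjusted p = 0.776). Neither passed in any of the alternative settings tried, which included library totals alone, although the sign of ncbi_110497964 turned with that scaling.

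The enzymes that complete BH4 had lower log2 changes than Gch1 (ncbi_110502330). The gene pts (ncbi_110498891), whose enzyme makes 6-pyruvoyl tetrahydropterin, had 178, 140 and 183 counts in wild-type skin, against 272, 230 and 260 in the yellow mutant. On the CPM scale the lowest yellow mutant library (11.2) barely cleared the highest wild-type library (11.1), and the increase was 1.27-fold (log2 change 0.34, SE 0.13, adjusted p = 0.0432). That call was kept without yellow mutant replicate 2 but lost without any of the other 5 libraries (adjusted p = 0.0657 to 0.183), and in DESeq2 (0.0829). The log2 change was 0.34, 0.30 and 0.37 without wild-type replicates 1, 2 and 3, and 0.35 without yellow mutant replicate 3. Calls over all loci also fell with 1 library left out, from 13737 to between 11674 and 12553. Without yellow mutant replicate 1, in which pts was most abundant, the log2 change was 0.22. SPR (ncbi_110509835), the sepiapterin reductase that completes BH4, stood at 22.6, 25.6 and 25.7 CPM against 25.1, 27.9 and 28.1 CPM. These groups overlapped, and the log2 change was 0.14 with a 95% interval from -0.051 to 0.33 (adjusted p = 0.219). With library totals alone SPR passed (log2 change 0.34, adjusted p = 0.00553).

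Both recycling enzymes had a locus that rose. Pcbd1 (ncbi_110502272), a carbinolamine dehydratase that is also a cofactor of the transcription factor HNF1 in mammals, had 26.9, 24.6 and 26.6 CPM in wild-type skin and 36.4, 33.1 and 35.4 CPM in the yellow mutant. The groups were separate and narrow, with a log2 change of 0.42 (SE 0.080, adjusted p = 0.000792). Its relative Pcbd2 (ncbi_110533284) rested on 152 wild-type and 236 yellow mutant counts and did not pass (log2 change 0.36, 95% interval -0.097 to 0.81, adjusted p = 0.187), but did with library totals alone (adjusted p = 0.0454).

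Dihydropteridine reductase regenerates BH4 from its quinonoid dihydro form, and 1 of its 3 loci passed the test. Qdpr (ncbi_110505140) stood at 30.2, 28.4 and 28.5 CPM in wild-type skin and at 50.2, 45.6 and 58.2 CPM in the yellow mutant, with a wide gap between the groups. Its means were 29.0 ± 1.01 and 51.3 ± 6.36 CPM (log2 change 0.82, SE 0.094, adjusted p = 1.31e-05). QDPR (ncbi_110491900) had 35.3, 38.1 and 37.5 CPM against 41.2, 36.7 and 37.2 CPM, which overlapped (log2 change 0.052, 95% interval -0.12 to 0.22, adjusted p = 0.624). This locus passed with library totals alone (log2 change 0.25, adjusted p = 0.0155). The third locus, Qdpr (ncbi_110488941), was near 5 CPM in both phenotypes, at 5.03 ± 0.231 and 5.02 ± 0.50 CPM (log2 change -0.0054, 95% interval -0.34 to 0.33, adjusted p = 0.981).

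**Figure D2:**
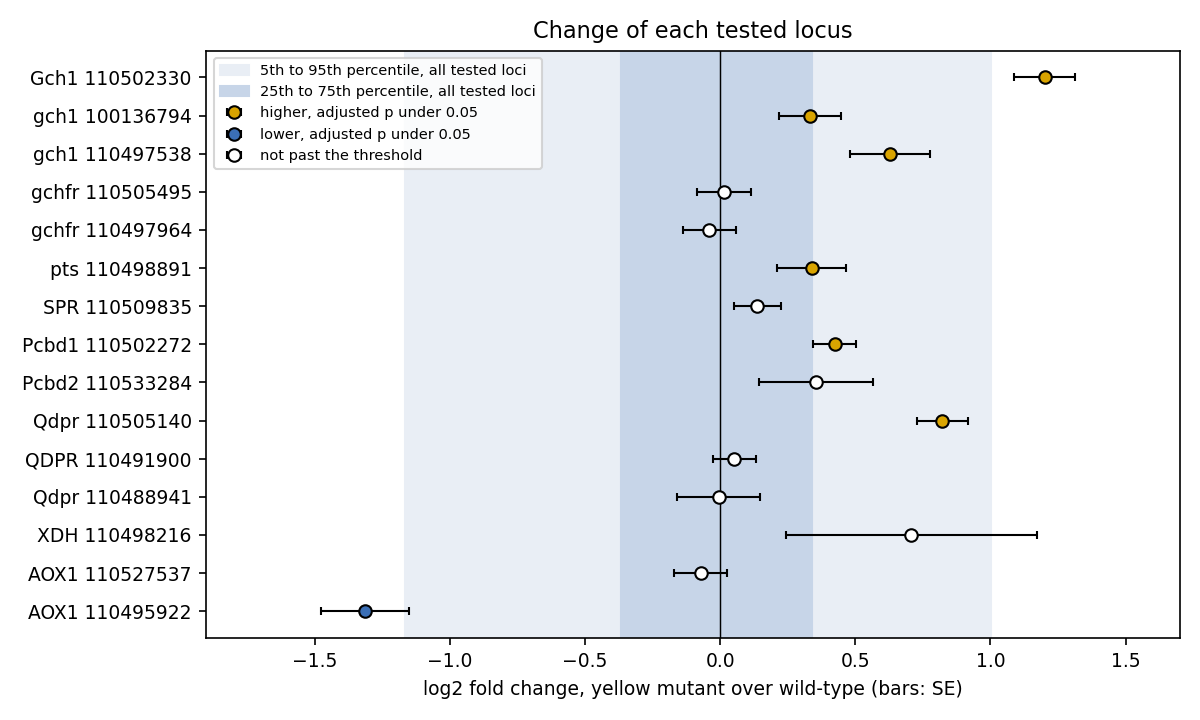
Log2 change between yellow mutant and wild-type skin with its SE for the 15 tested loci, against the 25th to 75th and the 5th to 95th percentile of all tested loci. Gch1 ncbi_110502330 at 1.20 lies above the upper band and AOX1 ncbi_110495922 at -1.31 below the lower one, and the other 13 lie within the wider band.

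Of the 3 loci of molybdenum enzymes, 1 fell and 2 did not pass. AOX1 (ncbi_110495922), the locus RefSeq names aox5, stood at 15.2, 11.7 and 12.9 CPM in wild-type skin and fell to 6.87, 4.84 and 4.45 CPM in the yellow mutant. Each yellow mutant library was below each wild-type library, and the log2 change was -1.31 (SE 0.16, adjusted p = 2.48e-05). In zebrafish, aox5 is a gene of xanthophores. The other aldehyde oxidase locus, AOX1 (ncbi_110527537, RefSeq aox6), was more abundant and overlapped between groups, at 42.8, 37.0 and 38.8 CPM against 41.6, 39.1 and 32.4 CPM (log2 change -0.072, 95% interval -0.28 to 0.14, adjusted p = 0.587). XDH (ncbi_110498216), the xanthine dehydrogenase, had few counts, 10, 25 and 6 in wild-type skin and 22, 24 and 37 in the yellow mutant. It did not pass (log2 change 0.71, SE 0.46, 95% interval -0.30 to 1.71, adjusted p = 0.236). Without wild-type replicate 2, its highest wild-type library, the log2 change was 1.58 and passed (adjusted p = 0.0146). It was 0.31 without wild-type replicate 3, 0.47 without wild-type replicate 1 and 0.46 without yellow mutant replicate 3, and did not pass in these settings (adjusted p = 0.497 to 0.619).

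The authors' deposited table, from a test that the sources used here do not name, lists 4 of the 16 loci as higher and 1 as lower at an FDR under 0.05, against 12.5% and 14% of all loci in that table. Its fold changes have the sign of the edgeR values at 12 of the 15 tested loci and at all 7 that passed in edgeR. The authors' deposited table gives Gch1 (ncbi_110502330) a log2 change of 1.40 and AOX1 (ncbi_110495922) one of -1.11. At pts, SPR and XDH its log2 changes (0.54, 0.34 and 0.86) equal the log2 ratios of mean FPKM (defined below). These log2 changes are thus scaled to library totals and not by TMM. The scaling behind the deposited FDR cannot be read from them. By that FDR, 5230 of all loci were higher and 5861 lower. In edgeR the numbers were 6658 and 7079 with TMM, and 10805 and 4544 with library totals alone. With library totals alone, edgeR gave Gch1 (ncbi_110502330) 1.40 and AOX1 (ncbi_110495922) -1.12.

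To set the enzymes side by side per length of RNA, the authors' FPKM values, which divide a count by the length of the RNA and the library total, were summed over the loci of each product. FPKM is scaled to library totals, so these levels do not carry the TMM scaling. In wild-type skin dihydropteridine reductase led with 38.9 ± 0.884 FPKM. GTP cyclohydrolase 1 (31.0 ± 2.60), carbinolamine dehydratase (29.9 ± 2.29) and the feedback regulator (29.4 ± 0.681 FPKM) followed. The ranges of these 3 overlapped, although the cyclohydrolase was slightly above carbinolamine dehydratase within each wild-type library. Sepiapterin reductase stood at 16.8 ± 0.954 FPKM, aldehyde oxidase at 10.7 ± 1.13, pts at 8.80 ± 0.433 and xanthine dehydrogenase at 0.30 ± 0.246 FPKM.

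In yellow mutant skin the cyclohydrolase came first. Its summed level was 84.8, 64.5 and 79.4 FPKM in yellow mutant replicates 1 to 3, against 33.7, 28.5 and 30.9 FPKM in the wild type. The mean of 76.2 ± 10.5 FPKM was 2.46 times the wild-type mean, and the groups did not overlap (exact two-sided permutation p = 0.1, the smallest that 3 against 3 libraries can give). Dihydropteridine reductase was next at 62.4 ± 5.52 FPKM, ahead of carbinolamine dehydratase (45.8 ± 0.976) and the feedback regulator (33.5 ± 4.13 FPKM). Its range overlapped that of the cyclohydrolase, but within each yellow mutant library it was lower (62.1, 57.0 and 68.0 FPKM). The regulator (28.7 to 30.1 against 30.4 to 38.2 FPKM) also separated the phenotypes on this scale, unlike its loci in CPM. Its exact two-sided permutation p was 0.1 as well. Sepiapterin reductase, which overlapped in CPM, was separated too (15.7 to 17.4 against 19.4 to 22.1 FPKM). The least abundant were sepiapterin reductase (21.2 ± 1.52), pts (12.8 ± 2.04), aldehyde oxidase (9.99 ± 1.29) and xanthine dehydrogenase (0.543 ± 0.154 FPKM). The ranges of pts and aldehyde oxidase overlapped there, but pts was higher within each yellow mutant library (14.9, 10.8 and 12.8 against 11.1, 10.2 and 8.6 FPKM). Gch1 (ncbi_110502330) alone gave 83.4% of the cyclohydrolase FPKM in wild-type skin and 89.5% in the yellow mutant.

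**Figure D3:**
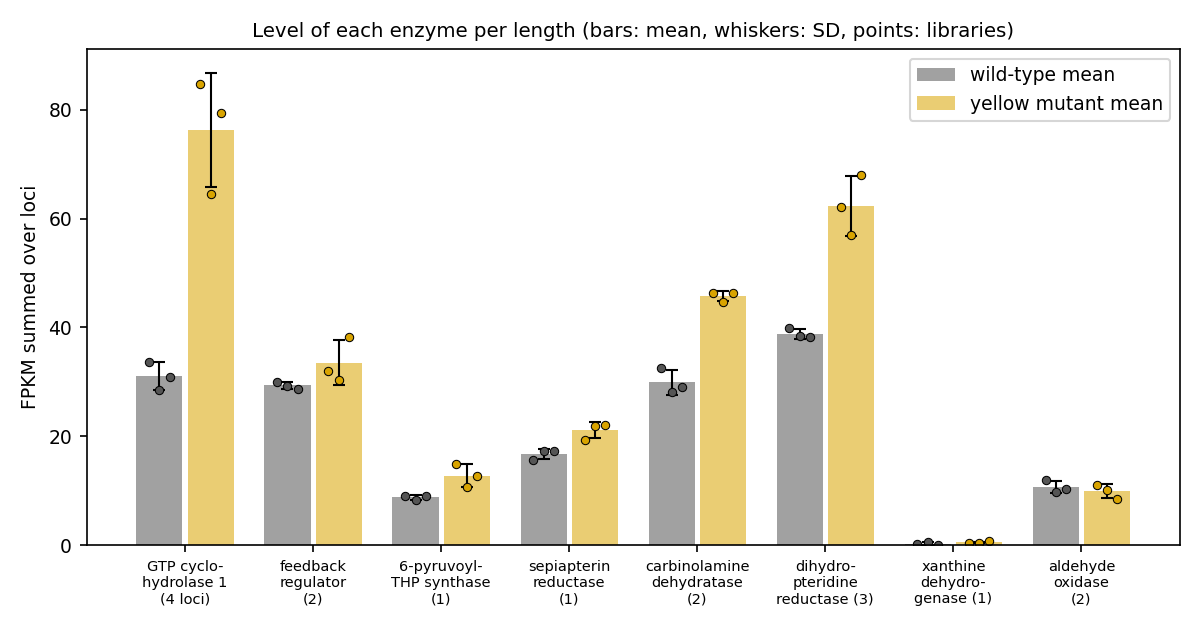
FPKM summed over the loci of each product, with bars for the mean, whiskers for the SD and points for the 3 libraries of each phenotype. GTP cyclohydrolase 1 stands at 31.0 and 76.2 FPKM in wild-type and yellow mutant skin and dihydropteridine reductase at 38.9 and 62.4 FPKM, while aldehyde oxidase is at 10.7 and 9.99 FPKM with overlapping points.

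Ratios within a library do not depend on how libraries are scaled. Those to the feedback regulator are still no separate check of the TMM scaling. Its 2 loci changed little under that scaling (log2 changes of 0.014 and -0.039), and all 7 ratios share it. Relative to the feedback regulator, an enzyme ratio chosen after the values were seen, GTP cyclohydrolase 1 stood at 1.12, 0.972 and 1.08 in wild-type skin and at 2.65, 2.12 and 2.08 in the yellow mutant. Each yellow mutant ratio was thus well above each wild-type ratio. Dihydropteridine reductase went from 1.32 ± 0.0101 to 1.87 ± 0.0813 times the regulator, carbinolamine dehydratase from 1.02 ± 0.0604 to 1.38 ± 0.143 and pts from 0.30 ± 0.0168 to 0.385 ± 0.0703, each without overlap. Sepiapterin reductase (0.572 ± 0.044 and 0.636 ± 0.0756), aldehyde oxidase and xanthine dehydrogenase overlapped between the phenotypes. Of these 7 ratios, the 4 that did not overlap had an exact two-sided permutation p of 0.1, the smallest possible. Their Benjamini-Hochberg adjusted value was 0.175. Among all tested loci, 26.8% were separated singly with the yellow mutant higher and 27.6% with it lower. Ratios of other genes to the regulator were not computed.

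The balance between the 2 loci of an enzyme with the highest mean FPKM was the log2 ratio of their counts within each library. It separated the phenotypes in 3 of the 5 enzymes with at least 2 tested loci. As single loci, 26.8% of all tested loci were separated with the yellow mutant higher and 27.6% with it lower. Ratios of other pairs were not computed. Gch1 (ncbi_110502330) over gch1 (ncbi_100136794) was 2.85, 2.64 and 2.74 in wild-type skin and 3.86, 3.27 and 3.70 in the yellow mutant, a difference of 0.86 between the group means. By CPM the next cyclohydrolase locus is gch1 (ncbi_110497538) instead, and against it, a ranking added after seeing the data, the ratios were 2.84, 2.80 and 2.49 against 3.74, 2.97 and 3.11, a difference of 0.56, again without overlap. Qdpr (ncbi_110505140) over QDPR (ncbi_110491900) was -0.22, -0.43 and -0.40 against 0.29, 0.31 and 0.65. By count, ncbi_110491900 was thus the more abundant in wild-type skin and ncbi_110505140 in the yellow mutant. Per length of RNA, ncbi_110505140 led in every library. Its wild-type FPKM was 20.5, 18.9 and 18.8 against 14.3, 15.1 and 14.7 for ncbi_110491900. In the yellow mutant it was 38.2, 35.2 and 44.9 against 18.6, 16.8 and 17.1 FPKM. AOX1 (ncbi_110527537) over AOX1 (ncbi_110495922) was 1.49, 1.66 and 1.59 against 2.60, 3.01 and 2.87. These 3 ratios did not overlap between phenotypes, but 3 against 3 libraries cannot pass the threshold: each had the smallest exact two-sided permutation p of 0.1 (0.167 adjusted over the 5 pairs). The ratios of the 2 gchfr loci and of Pcbd1 over Pcbd2 overlapped (differences of 0.049 and 0.047 between the group means, exact permutation p = 0.5 and 0.9).

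**Figure D4:**
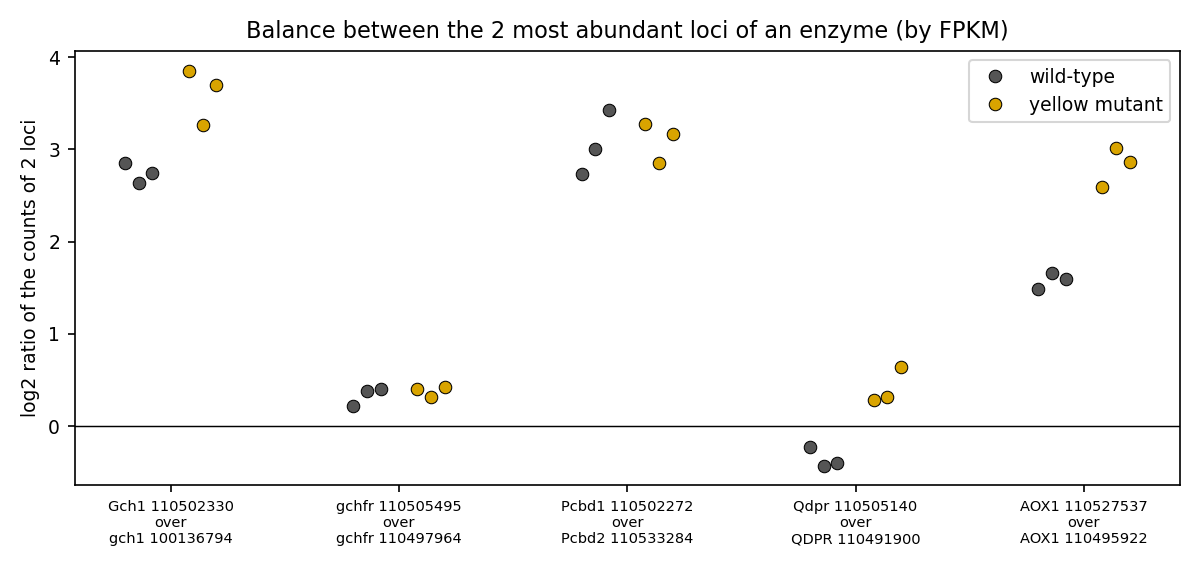
Log2 ratio of the counts of the 2 loci of an enzyme with the highest mean FPKM, in each of the 6 libraries. The cyclohydrolase, dihydropteridine reductase and aldehyde oxidase pairs separate the phenotypes, by 0.86, 0.76 and 1.25 between group means, and the gchfr and Pcbd pairs overlap.

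The genes around the pathway were taken from 6 lists of suppliers, users and neighbours of pteridine synthesis, which held 103 loci besides the enzymes. Of 78 tested, 32 were higher, 15 lower and 31 did not pass, with a median log2 change of 0.14 (21.7% and 23.1% of all tested loci were higher and lower, with a median of -0.0029). In the GTP supply list, 8 of 18 tested loci were higher and 3 lower (median 0.21). IMP dehydrogenase commits purines to guanine nucleotides, and impdh1b (ncbi_110490583) rose from 114 ± 5.52 to 164 ± 6.10 CPM (log2 change 0.52, SE 0.076, adjusted p = 0.000105). The most abundant locus of the list, Nme2 (ncbi_100305319), a nucleoside diphosphate kinase that makes GTP from GDP, fell by 0.39 on the log2 scale (SE 0.11, adjusted p = 0.00872), and guanylate kinase GUK1 (ncbi_100305265) fell by 0.22 (SE 0.077, adjusted p = 0.0329). The call of GUK1 was lost with library totals alone (adjusted p = 0.845), in limma on FPKM values (0.707 to 0.708) and without any of wild-type replicates 1, 2 and 3 or yellow mutant replicate 2 (0.0528 to 0.118). That of Nme2 was lost with library totals alone (adjusted p = 0.118) and in limma on FPKM values (0.173 to 0.18).

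Enzymes that use BH4 went both ways, with 3 of 7 tested loci higher and 2 lower (median 0.27). The most abundant locus of inducible nitric oxide synthase, NOS2 (ncbi_100136036), fell from 313 ± 34.1 to 198 ± 57.3 CPM (log2 change -0.66, SE 0.17, adjusted p = 0.00577). Nos1 (ncbi_100136347), the neuronal type synthase, fell by 0.53 (SE 0.11, adjusted p = 0.00138). Both of these calls were lost in limma on FPKM values (adjusted p = 0.0636 to 0.0647 for NOS2 and 0.0608 to 0.0612 for Nos1). Named here after its value was seen, the other NOS2 locus (ncbi_110507147) rose from 8.67 ± 2.06 to 59.3 ± 7.88 CPM (log2 change 2.78, SE 0.15, adjusted p = 1.85e-08).

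Enzymes of folate metabolism, a neighbouring pterin pathway, were higher at 4 of 8 tested loci and lower at 0 (median 0.46). Among them were MTHFD1 (ncbi_110497985), which interconverts forms of folate, with a log2 change of 0.94 (SE 0.077, adjusted p = 6.56e-07), and a further Mthfd1 locus (ncbi_110521990), named after its value was seen, with 0.63 (SE 0.19, adjusted p = 0.017), which did not pass without wild-type replicate 2 (0.0644). Among side-chain reductases and pterin handling genes, 5 of 11 were higher and 2 lower (median 0.059). Carbonyl reductases can reduce the side chain of 6-pyruvoyl tetrahydropterin, and 2 Cbr1 loci rose, by 0.78 (ncbi_110527555, SE 0.090, adjusted p = 1.31e-05) and 0.60 (ncbi_100136606, SE 0.082, adjusted p = 6.64e-05). Named after its value was seen, another CBR1 locus (ncbi_110520445) fell from 20.4 ± 1.35 to 16.8 ± 1.18 CPM (log2 change -0.28, SE 0.093, adjusted p = 0.025). Its call was lost with library totals alone (-0.084, adjusted p = 0.489), in limma on FPKM values (0.522 to 0.523), in DESeq2 (0.0781) and when replicate 1 or 2 of the wild type or replicate 2 or 3 of the yellow mutant was left out (0.0617 to 0.0912). The ubiquitin ligase gene mycbp2 (ncbi_110519948), whose loss in zebrafish lowers yellow pteridine pigment, fell from 149 ± 5.27 to 115 ± 2.52 CPM (log2 change -0.37, SE 0.073, adjusted p = 0.00108). That call was lost with library totals alone (adjusted p = 0.063) and in limma on FPKM values (0.0939 to 0.0949).

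Genes for the molybdenum cofactor of xanthine dehydrogenase and aldehyde oxidase, and other molybdenum enzymes, were higher at 5 of 12 tested loci and lower at 0 (median 0.14), although the aldehyde oxidase locus named aox5 fell. MOCS2 (ncbi_110523920), the molybdopterin synthase subunit, rose by 0.43 (SE 0.11, adjusted p = 0.00818). SUOX (ncbi_110528223), sulfite oxidase, and mocs3 (ncbi_110498038), which activates the sulfur carrier of that synthase, rose by 0.30 and 0.40 (adjusted p = 0.0327 and 0.0343). Both were lost in DESeq2 (adjusted p = 0.0853 and 0.0647), without wild-type replicate 3 (0.145 and 0.148) and without yellow mutant replicate 3 (0.0659 and 0.121). SUOX was also lost when replicate 2 of the wild type (0.0614) or of the yellow mutant (0.101) was left out, and mocs3 without yellow mutant replicate 1 (0.0871).

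Purine breakdown genes were split, with 7 of 22 tested loci higher and 8 lower (median 0.064). Pnp (ncbi_110494149), a purine nucleoside phosphorylase, rose by 0.38 (SE 0.093, adjusted p = 0.00463), while adenosine deaminase ada (ncbi_100136795) fell from 116 ± 7.62 to 76.0 ± 2.07 CPM (log2 change -0.61, SE 0.076). AMP deaminase AMPD3 (ncbi_110499075) fell from 117 ± 5.43 to 50.4 ± 1.29 CPM (log2 change -1.22, SE 0.074, adjusted p = 5.75e-08). The other 3 tested AMPD3 loci, named after their values were seen, also fell, by 1.54 (ncbi_110526368), 0.42 (ncbi_110524028) and 0.76 (ncbi_110506480). The call of ncbi_110524028 was lost with library totals alone (adjusted p = 0.0687) and in limma on FPKM values (0.116), and that of ncbi_110506480 in limma on FPKM values (0.0786 to 0.0915) and without wild-type replicate 2 (0.0599).

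**Figure D5:**
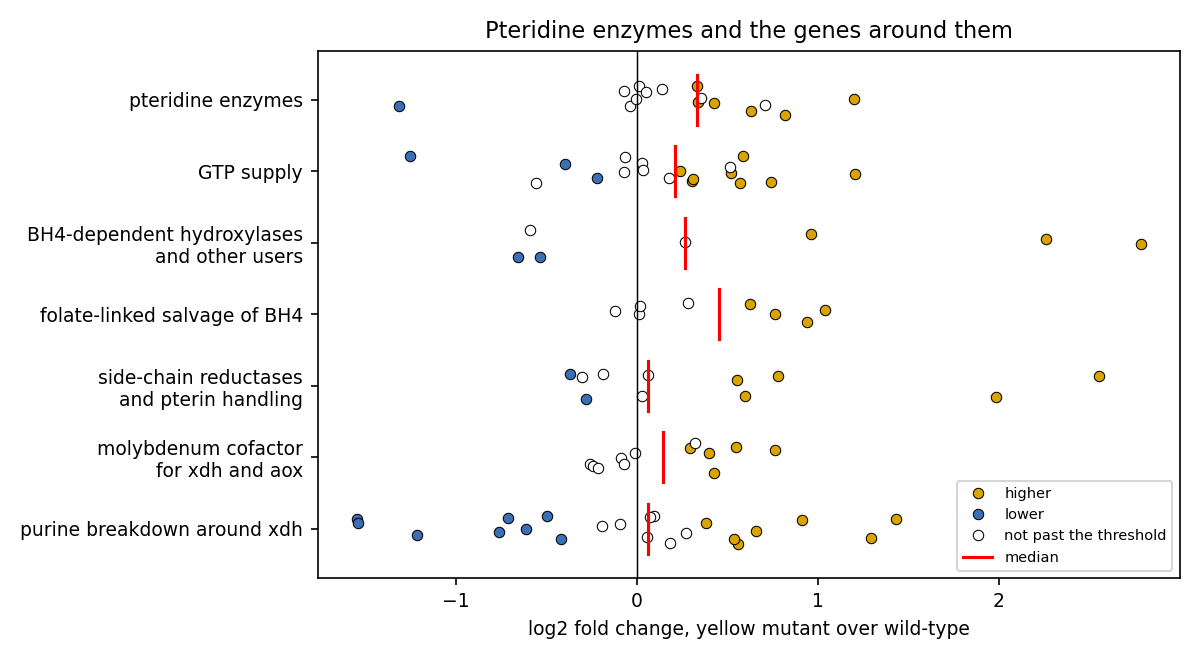
Log2 change between yellow mutant and wild-type skin for every tested locus of the pteridine enzymes and of 6 lists around them, with a red line at each list's median. The medians run from 0.059 to 0.46, and each list holds loci past the threshold, with lower loci in all lists except the folate and molybdenum cofactor ones.

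The summed levels of melanophore, xanthophore and keratinocyte marker genes did not overlap between phenotypes, those of 4 other cell types did, and the part of any of them in the result was not tested. Their called loci stand against 21.7% higher and 23.1% lower among all tested loci. Of 17 tested melanophore loci (black pigment cells), 14 were higher and 1 lower, and their summed level was 555 to 640 CPM in wild-type and 1188 to 1415 CPM in yellow mutant libraries, with 0 of 18 loci without a count. Of 15 tested xanthophore loci, 4 were higher and 2 lower, with sums of 103 to 117 and 138 to 156 CPM and 1 of 20 loci without a count. SLC2A11 rose from 14.9 to 31.1 CPM (ncbi_110525343) and from 9.38 to 18.8 CPM (ncbi_110535747). The other higher loci were SCARB1 (ncbi_110523398), from 11.5 to 19.2 CPM, and BCO1 (ncbi_110526946), from 0.466 to 1.56 CPM. The 2 lower loci were another SCARB1 copy (ncbi_100136324), from 13.6 to 7.29 CPM, and SOX5 (ncbi_110501045), from 2.96 to 1.8 CPM. The table held 6 of 10 xanthophore, 5 of 8 iridophore, 3 of 6 leukocyte, 4 of 5 erythrocyte and 7 of 9 keratinocyte symbols. Missing ones included csf1r for xanthophores and pnp4a and ltk for iridophores. Iridophore loci (reflecting pigment cells) had 4 of 11 higher and 0 lower, with overlapping sums of 363 to 393 and 388 to 499 CPM and 2 of 14 loci without a count. Keratinocyte loci had 30 of 42 lower and 2 higher, with sums of 82360 to 86720 and 32930 to 36630 CPM and 1 of 50 loci without a count. Leukocyte loci had 2 of 6 lower and 0 higher, with overlapping sums of 870 to 1011 and 787 to 874 CPM and 0 of 6 loci without a count. Erythrocyte loci had 4 of 9 lower and 0 higher, with overlapping sums of 689 to 1031 and 700.3 to 930 CPM and 1 of 15 loci without a count. Skeletal muscle loci had 6 of 24 higher and 4 lower, with overlapping sums of 16950 to 20790 and 12930 to 19370 CPM and 0 of 29 loci without a count.

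Over the 6 libraries, the levels most like that of Gch1 (ncbi_110502330) among 13665 loci with at least 10 CPM were those of RCE1 (ncbi_110531865), ILK (ncbi_110507998) and mid1ip1l (ncbi_110488729). Their Pearson correlations of log2 CPM with it were 0.999, 0.999 and 0.997, and their own log2 changes were 0.61, 0.21 and 0.51. The 6 points share 2 phenotypes and their libraries, and 1148 of the loci searched had a correlation above 0.95.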

How the data were processed

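Total RNA of flash-frozen dorsal skin was extracted with Trizol and sequenced with standard Illumina libraries, per the labels' protocols. Bowtie2 2.2.8 and TopHat2 2.1.1 were used, per the submitters' processing notes. The sources used here name no counting tool, treatment of shared reads, strand setting, build or annotation. Raw counts and FPKM were deposited for each locus and library, per the file headers. The authors' group means, log2 fold changes, p-values and FDR stand in the same deposited table, and of these the authors' log2 fold changes and FDR are quoted in 1 paragraph. RefSeq gene names (USDA_OmykA_1.1) were matched by gene number for 16 of 16 enzyme loci, and no coordinates are given.

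Loci were filtered with filterByExpr (minimum count 10), scaled with TMM and tested with edgeR 4.0.16 (glmQLFit, glmQLFTest, no covariates) in R 4.3.3. The SE is the log2 fold change divided by the square root of F, and 95% intervals use the fit's degrees of freedom. Alternatives used DESeq2 1.42.0 and limma 3.58.1 on log2(FPKM + 0.5), with pseudocounts 0.1 and 1 as well. The fit was run on simulated counts with known changes in both directions, at far fewer loci than were called here. That simulation does not test the scaling of these libraries. The enzyme loci and lists were chosen with earlier results of these data known. Named list genes are the up to 3 most abundant of each list that passed, unless stated otherwise. Some genes that this rule names are not reported here. Lists were matched by symbol only, so genes under other symbols are not counted. The labels give equal replicate numbers to both phenotypes but do not say that they pair libraries. Precision is limited by 3 libraries per phenotype and by low counts at gch1 (ncbi_110498968) and XDH.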

Additional observations from a re-analysis of the deposited data

How the results depend on the processing

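Gch1 (ncbi_110502330), gch1 (ncbi_110497538), Pcbd1, Qdpr (ncbi_110505140) and AOX1 (ncbi_110495922) kept their direction and stayed past the threshold in all 16 alternatives each. Their log2 fold changes ranged from 1.10 to 1.40, 0.52 to 0.83, 0.38 to 0.62, 0.73 to 1.02 and -1.51 to -0.72, where limma on log2(FPKM + 1), whose pseudocount shrinks changes of low values, gave the last. The number of higher enzyme loci was 4 in DESeq2, 4 to 5 when 1 library was left out and 9 with library totals alone or limma on FPKM. It was 6 with the other filters, RLE factors and TMM without keratin loci. The higher calls over all loci moved too, from 6658 of 30691 in edgeR with TMM to 5561 of 30691 in DESeq2. With 1 library left out they were 5602 to 6015 of 31173 to 31312. With library totals alone or limma on FPKM they were 10308 to 10805 of 30691. They were 6293 to 6746 with the other filters, RLE factors and TMM without keratin loci. Where only the loci that fit the rule by symbol as well as product were kept, 5 were higher and 0 lower in edgeR, since pts, matched by symbol only, and the aldehyde oxidase loci, matched by product only, drop out by construction. Over all loci, 10805 were higher and 4544 lower with library totals alone, and 10357 and 4269, 10308 and 4245, and 10361 and 4279 in limma with pseudocounts 0.5, 0.1 and 1; both are scaled to library totals.

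Signs turned only at 4 loci near 0 that did not pass in any setting. With library totals alone and limma with pseudocounts 0.5, 0.1 and 1, gchfr (ncbi_110497964) stood at 0.16, 0.15, 0.15 and 0.14, AOX1 (ncbi_110527537) at 0.13, 0.12, 0.12 and 0.11, and Qdpr (ncbi_110488941) at 0.19, 0.17, 0.19 and 0.16. Qdpr (ncbi_110488941) stood at 0.0017 with at least 10 counts in every library. With 1 library left out, the ranges were -0.12 to 0.021 for gchfr (ncbi_110497964), -0.093 to 0.11 for gchfr (ncbi_110505495), -0.14 to 0.031 for AOX1 (ncbi_110527537) and -0.083 to 0.067 for Qdpr (ncbi_110488941). The 3 sister ratios that separated the phenotypes were also compared with 1 library left out, an alternative chosen after seeing the data. Their differences were 0.74 to 1.03 for the cyclohydrolase, 0.65 to 0.83 for dihydropteridine reductase and 1.15 to 1.36 for aldehyde oxidase. The sign of these differences could not turn, since groups without overlap keep it whichever library is dropped.

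The deviations of libraries with equal replicate numbers from their group means correlated at 0.083, 0.036 and 0.066, each the highest for its library. Those with unequal numbers correlated at -0.074 to 0.011. Deviations from a group mean sum to 0 at each locus, so higher values for equal numbers force lower ones for unequal numbers. The contrast between them is therefore no independent evidence. Whether equal numbers pair libraries was not tested. With the replicate block 7 enzyme loci passed, 6 higher and 1 lower, and 13868 of all loci against 13737.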
